A study of Mus musculus with 2 samples.

Results

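Erythropoietin (EPO) is the hormone that keeps red blood cell precursors alive and dividing. It binds a receptor encoded by Epor, which has no enzyme activity of its own and works through the bound kinase JAK2. Active JAK2 phosphorylates the receptor tail, where STAT5A and STAT5B dock, become phosphorylated and move to the nucleus to switch on survival and growth genes. Among the genes switched on are those for CIS and SOCS proteins, which bind the receptor or JAK2 and turn the signal down, so the pathway makes its own brake. The fetal liver is the main site of red cell formation at this age and depends on this receptor.

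The 10 genes described here are Epor, Jak2, the Src-family kinase gene Lyn, Stat5a, Stat5b, and the genes of 5 negative regulators, Cish, Socs1, Socs2, Socs3 and Ptpn6. They were chosen by name as the receptor, its kinases, its transcription factors and their feedback, and all 10 were found among the 42462 named mouse genes of the deposited tables. RNA was sequenced from livers of mixed-sex B6NCrl mouse embryos at age 14.5 days, with no treatment or mutation named, in 1 group of 2 libraries. Replicate 1 was collected on 17 July and replicate 2 on 15 July. Each sample is labelled as 1 liver but also as pooled from both sexes, and both carry 1 donor code, so how far the embryos were separate is not settled by the labels. Each library started from 10 ng of RNA longer than 200 nucleotides with synthetic spike-in RNA added. There is no second group to set these livers against, and no p-value is given. Each library's value is shown, or the mean ± SD of both (n = 2).

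Levels are in TPM, a share of all transcripts scaled to a fixed total, which divides reads by transcript length and can therefore be compared between genes. Mouse genes had 37059776 estimated reads in replicate 1, against 26908926 in replicate 2. All 8 hepatocyte marker genes and all 9 measured erythroid marker genes were at 1 TPM or more in both libraries, against 26.7% of all named mouse genes. These are picked markers, and all 7 megakaryocyte and all 6 endothelial markers passed as well, so the count alone does not identify the tissue. Globin genes made up 39.9% of all mouse TPM in replicate 1, against 38.1% in replicate 2, which lowers the TPM of every other gene. Neutrophil and monocyte markers were higher in replicate 1, with a summed 2754 TPM against 1981 TPM in replicate 2, and megakaryocyte markers were lower, with 540.2 TPM against 674 TPM. In whole tissue, fewer cells of a type and less RNA per cell cannot be told apart.

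Epor was the most abundant of the 10 genes by a clear margin. It stood at 62.5 TPM in replicate 1, against 73.0 TPM in replicate 2, a mean of 67.7 ± 7.5 TPM (SD, n = 2). This rested on 4518 and 3670 reads, all on the 1 listed transcript, with a posterior SD, the error of assigning reads in the authors' files, of 0 reads. Of the 11323 genes at 1 TPM or more in both libraries, 88.4% had a lower mean than Epor. The gene (ENSMUSG00000006235.5) lies on the minus strand of chromosome 9, at chr9:21958897-21963506 on GRCm38 (mm10).

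The stretch upstream of Epor is shown because it carries the binding word of GATA factors, which drive red cell genes. The 150 bases before the RefSeq start on the minus strand, chr9:21963577-21963726 (RefSeq sequence, GRCm38.p6), read 5′ to 3′, with the match to AGATAA in capitals, here on the opposite strand and so read as TTATCT:
Epor upstream: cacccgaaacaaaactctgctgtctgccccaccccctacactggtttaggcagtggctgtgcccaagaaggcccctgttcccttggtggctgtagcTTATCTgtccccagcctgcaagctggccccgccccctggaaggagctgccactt
The match begins at base -54, counted from the start. AGATAA, searched on both strands, occurs in 11.2% of the 32851 promoter windows of 300 bases in the RefSeq table. Promoter windows were found for 8 of the 10 genes, 10 windows in all, and Epor was the only one of these genes with a match. A match in 1 of 10 windows is near the share over all windows, so the count is not a result about these genes. A match describes the letters and does not show that a factor binds.

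Jak2, the kinase that the receptor needs, stood at 13.03 TPM in replicate 1, against 15.93 TPM in replicate 2, with 2687 and 2282 reads. Epor was thus 4.79-fold above Jak2 in replicate 1 and 4.58-fold in replicate 2, per unit length. The gene (ENSMUSG00000024789.8) is at chr19:29251828-29313080 on the plus strand. Its 2 annotated transcripts have 3396 coding bases each. Nearly all reads were given to the longer one, with a posterior SD of 135 reads in replicate 1 and 116 in replicate 2.

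Jak2 was not the leading Janus kinase of the tissue. Jak1, which serves interferon and interleukin receptors, was at 31.2 TPM in replicate 1, against 35.5 TPM in replicate 2. That put Jak2 at 0.418 of Jak1 in replicate 1 and 0.449 in replicate 2. Tyk2, at 2.85 and 3.62 TPM in replicates 1 and 2, and Jak3, a kinase of lymphoid cytokine receptors, at 2.47 and 2.52 TPM, were far below. Jak2 was 4.57-fold above Tyk2 in replicate 1 and 4.401-fold in replicate 2, and no level of one JAK gene overlapped that of the next in order.

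**Figure D1:**
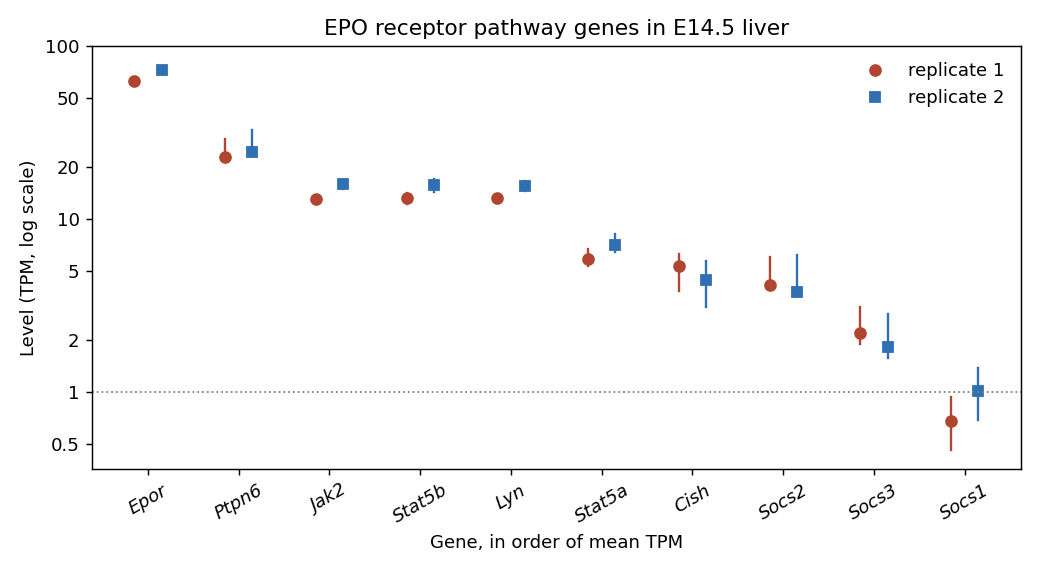
Level of each of the 10 genes in TPM on a log scale, replicate 1 as circles and replicate 2 as squares, with vertical lines for the interval that the authors deposited with each value. Epor stands alone at the top, Jak2, Stat5b and Lyn share the same range of 13.03 to 15.93 TPM, and Socs1 lies at the dotted line of 1 TPM.

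The receptor was high for its class. In a group of 14 genes for EPO and for other cytokine receptors and ligands, many of which use JAK2, the highest was Ifngr1, an interferon gamma receptor chain, at 32.7 TPM in replicate 1, against 30.6 TPM in replicate 2. The growth hormone receptor gene Ghr followed at 14.7 and 13.3 TPM in replicates 1 and 2, and Ifngr2 at 10.3 and 10.6 TPM. Kit, the receptor for stem cell factor that acts before EPO in red cell precursors, was at 9.71 and 9.16 TPM. The lowest was the prolactin receptor gene Prlr, at 0.03 and 0.01 TPM.

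Epo itself was close to the detection limit. It stood at 0.69 TPM in replicate 1, against 0.51 TPM in replicate 2, from 19.1 and 9 reads, and was below 1 TPM in both. Over the 14 genes of this group, 8 reached 1 TPM in both libraries, against 26.7% of all named mouse genes, and the median of all 14 was 2.81 TPM. With genes picked by name, that count is not a result about them. The median over all 42462 named genes was 0 TPM, and 9.15 TPM over the 11686 averaging 1 TPM or more.

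Lyn (chr4:3678115-3813122, plus strand) encodes a Src-family kinase that also associates with the EPO receptor. It stood at 13.2 TPM in replicate 1, against 15.6 TPM in replicate 2 (1828 and 1440 reads), a mean of 14.4 ± 1.7 TPM (SD, n = 2). It was the highest of the 7 Src-family genes described. Of its 100-base stretches, 11.6% also occur in Gm11787 or Gm26857, and the posterior SD of its reads was 0.83 in replicate 1 and 0.99 in replicate 2. Fyn was at 6.62 and 7.35 TPM in replicates 1 and 2, Yes1 at 3.22 and 4.03 TPM, and Lck, a T-cell member, at 3.13 and 3.16 TPM. Src at 0.73 and 0.97 TPM, Fgr at 0.62 and 0.45 TPM and Blk at 0.14 and 0.03 TPM stayed below 1 TPM in both libraries. Lyn was 1.99-fold above Fyn in replicate 1 and 2.12-fold in replicate 2. Csk, the kinase that switches Src-family members off, was at 7.14 and 9.03 TPM.

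Lyn makes a long and a short protein by alternative splicing, and both forms were present. The long form differs by 63 coding bases, or 21 codons, at the 3′ end of a coding exon. The long form took 70.1% of the gene's TPM in replicate 1 and 75.4% in replicate 2. The short form took 29.2% and 18.6%. The long form was 2.40-fold above the short form in replicate 1 and 4.06-fold in replicate 2, so the long form led in both libraries but its lead was not the same. The forms share 3387 bases, all of the short one, and the posterior SD of the short form was 109 of 528 reads in replicate 1 and 76.6 of 276 reads in replicate 2.

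Stat5b was the higher of the paired STAT5 genes. It stood at 13.2 TPM in replicate 1, against 15.7 TPM in replicate 2 (2520 and 2102 reads), and Stat5a at 5.86 and 7.07 TPM in replicates 1 and 2 (764 and 664 reads). On a log2 scale Stat5a over Stat5b was -1.17 in replicate 1 and -1.15 in replicate 2, that is, Stat5b was 2.25-fold and 2.21-fold above Stat5a. The SD of that log2 ratio between the libraries was 0.017 (n = 2). The genes lie next to each other on chromosome 11, Stat5b at chr11:100780731-100850724 on the minus strand and Stat5a at chr11:100859351-100885169 on the plus strand, with 8626 bases between their starts.

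The coding sequences of the pair are close enough that reads could be exchanged, so their difference in level was checked against the sequence. The leading transcripts have 2379 coding bases for Stat5a and 2358 for Stat5b, and 90.7% of 2343 aligned bases were identical. The longest run without a difference was 324 bases, longer than the 100-base reads that the deposited effective lengths point to. Of all 100-base stretches in annotated transcripts, 3.44% of those of Stat5a and 4.79% of those of Stat5b occur in the other gene. The posterior SD was 7.01 reads for each gene in replicate 1 and 7.00 reads in replicate 2, small beside the difference in reads. A stretch of 60 coding bases where the genes differ most, at coding bases 85 to 144 of both, shows how reads are told apart, with differing bases in capitals:
Stat5a: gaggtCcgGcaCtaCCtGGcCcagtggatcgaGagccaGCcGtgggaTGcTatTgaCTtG
Stat5b: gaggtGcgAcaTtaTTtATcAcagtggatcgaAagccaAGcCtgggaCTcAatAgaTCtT
They differ at 19 of the 60 bases. The stretch of Stat5a spans chr11:100861422-100861736 on the plus strand and that of Stat5b chr11:100805011-100808439 on the minus strand, both across an intron.

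Stat5b-201, the full-length transcript, held 86.2% of the gene's TPM in replicate 1 and 90.6% in replicate 2. Stat5a-202 held 69.1% and 72.9% of that of Stat5a, and a short fragment of 617 bases, Stat5a-206, held 16.1% and 12.5% from only 20.5 and 13.3 reads. Counting protein-coding transcripts only narrowed the log2 ratio of Stat5a over Stat5b to -1.04. The 3′ end of Stat5a overlaps that of Stat3 on the other strand by 72 bases, with strand handling in the counting not given in the sources used here.

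Of the other STAT genes described, Stat3, a factor for interleukin-6 type cytokines, was the highest at 22.5 TPM in replicate 1, against 22.2 TPM in replicate 2. Stat6 was at 8.34 and 10.2 TPM in replicates 1 and 2, Stat2 at 3.12 and 3.38 TPM and Stat4 at 1.27 and 1.51 TPM. Stat5a and Stat5b together had 19.1 TPM in replicate 1, against 22.7 TPM in replicate 2, close to Stat3 alone.

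**Figure D2:**
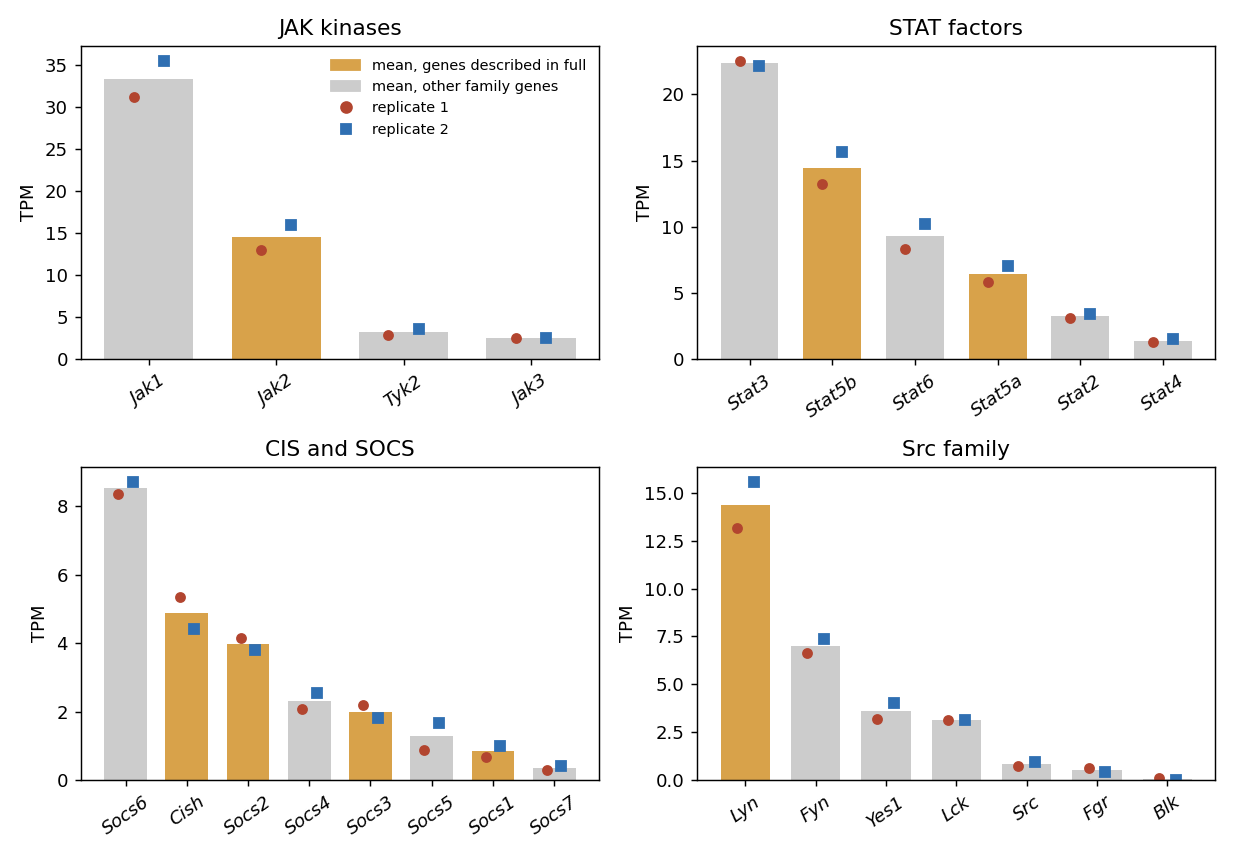
TPM of JAK, STAT, CIS and SOCS, and Src family genes, each in order of mean level, with bars for the mean of both libraries, circles for replicate 1 and squares for replicate 2. Jak2 is second to Jak1, Stat5b is second to Stat3, Cish and Socs2 follow Socs6, and Lyn leads the Src family genes shown.

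The transcripts of the CIS and SOCS brakes were low. Cish stood at 5.35 TPM in replicate 1, against 4.43 TPM in replicate 2, Socs2 at 4.14 and 3.80 TPM in replicates 1 and 2, Socs3 at 2.19 and 1.82 TPM and Socs1 at 0.68 and 1.01 TPM. The reads behind them were few, at 304 and 190 for Cish, 268 and 165 for Socs2, 192 and 123 for Socs3, and 32 and 33 for Socs1. Every one of these TPM values lay below both values of Stat5a, the lowest gene of the activating side.

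Socs1 (chr16:10782240-10785536, minus strand), whose protein blocks JAK kinases directly, was the one gene of the 10 that did not reach 1 TPM in both libraries. Its 32 reads in replicate 1 have a 95% exact Poisson interval of 21.9 to 45.2 reads, and its 33 reads in replicate 2 one of 22.7 to 46.3 reads, which cover counting error only, since reads copied by amplification are not independent. The other 9 genes passed, against a background of 26.7% of all named mouse genes. For genes picked as known parts of a pathway in this tissue, that share is not a result about them.

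By the gene totals, Cish was 1.29-fold above Socs2 in replicate 1 and 1.17-fold in replicate 2. That order depended on which transcripts were counted. The 371-base processed transcript Cish-205 held 40.6% of the gene's TPM in replicate 1 and 38.8% in replicate 2, but only 8.14% and 7.15% of its reads (24.8 and 13.6), because dividing by a short length raises TPM. With protein-coding transcripts only, Cish stood at 2.98 TPM in replicate 1, against 2.53 TPM in replicate 2, below Socs2, at 3.94 and 3.56 TPM. The authors' posterior mean TPM also placed Cish at 5.02 and 4.35 TPM, near Socs2 at 4.99 and 4.97 TPM.

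Most reads of Cish, 75.2% in replicate 1 and 73.2% in replicate 2, were given to Cish-204, a transcript of 2742 bases with only 186 coding bases. Cish-201, the transcript with the full coding sequence of 771 bases, was given 0 reads in replicate 1 and 6.89 in replicate 2, with posterior SDs of 18.6 and 13.2 reads. These transcripts share 1945 bases, and the posterior SDs exceed the reads given to Cish-201, so its level could not be set from these files. The gene (ENSMUSG00000032578.7) is at chr9:107296026-107302784 on the plus strand, and 6.75% of its 100-base stretches also occur in the antisense gene Gm17041 or the overlapping pseudogene Gm17040. Those listed genes had 3 and 2 reads in replicate 1 and 14.1 and 2 reads in replicate 2.

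Cish is a classic STAT5 target, and STAT5 dimers bind the word TTCNNNGAA. The stretches below are the places where this word occurs near the starts of these genes, with matches in capitals (RefSeq sequence, GRCm38.p6). The Cish stretch is chr9:107296659-107296678 on the plus strand and the Socs3 stretch chr11:117969502-117969530 on the minus strand:
Cish: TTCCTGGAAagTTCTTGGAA
Socs3: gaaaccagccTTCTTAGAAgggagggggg
Cish held 2 matches, beginning at bases 1 and 12 after the RefSeq start, and Socs3 held 1, beginning at base -154. The word reads the same on both strands and occurs in 8.30% of the 32851 promoter windows. Of the 10 windows of these genes, 2 held it, too few to set them apart from that share. The windows of Epor, Jak2, Stat5a, Stat5b, Socs1 and Ptpn6 held none, which says only that these letters are not in those 300 bases.

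Socs2 (chr10:95385362-95417180, minus strand) encodes the SOCS protein that restrains growth hormone signalling. Its leading transcripts, of 2222 and 948 bases, have 594 coding bases each and took 54.4% and 36.8% of TPM in replicate 1, and 51.9% and 34.6% in replicate 2. The gene value of 3.80 TPM in replicate 2 lay just below the interval of 3.81 to 6.22 TPM that the authors deposited for it, and that of replicate 1, 4.14 TPM, near the low end of 4.03 to 6.03 TPM. Of its 100-base stretches, 2.31% also occur in the gene Gm9847. Socs3 (chr11:117966079-117970047, minus strand), whose protein binds the EPO receptor tail, had 1 main transcript of 2552 bases, with 82.6% of TPM in replicate 1 and 93.9% in replicate 2.

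Of the SOCS genes outside the feedback set, Socs6 was the highest of the family at 8.37 TPM in replicate 1, against 8.71 TPM in replicate 2. Socs4 was at 2.09 and 2.55 TPM in replicates 1 and 2, Socs5 at 0.89 and 1.67 TPM and Socs7 at 0.31 and 0.43 TPM. Socs4 overlapped Socs3 in level.

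The phosphatase brake was much higher than the CIS and SOCS brakes. Ptpn6, which encodes SHP-1, a phosphatase that docks on the EPO receptor and removes phosphate from JAK2, stood at 22.9 TPM in replicate 1, against 24.3 TPM in replicate 2 (1805 and 1295 reads). It was second of the 10 genes, above Jak2 in both libraries. Summed over Cish, Socs1, Socs2, Socs3 and Ptpn6, the feedback genes had 35.3 TPM in replicate 1 and 35.4 in replicate 2. Epor, Jak2, Stat5a and Stat5b together had 94.5 TPM in replicate 1 and 112 in replicate 2. The feedback sum was thus 37.3% of the sum of those 4 genes in replicate 1 and 31.7% in replicate 2, a mean of 34.5% ± 4.0 (SD, n = 2). With Lyn added to the 4 genes it was 32.7% and 27.8%. Without Ptpn6, and with Lyn left out again, it was 13.1% and 9.91%, so most of the feedback sum was Ptpn6.

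Ptpn6 (chr6:124720707-124738714, minus strand) is transcribed from 2 start regions that give proteins with different first residues. The downstream start is the one known from human blood cells, and the upstream starts of the transcripts with reads lie 5560 and 5471 bases before it. The first coding bases of each are shown, read from the GENCODE M21 transcripts on the minus strand of chromosome 6, with the part from the start-specific exon in capitals:
Ptpn6 downstream start: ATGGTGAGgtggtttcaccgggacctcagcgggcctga
Ptpn6 upstream start: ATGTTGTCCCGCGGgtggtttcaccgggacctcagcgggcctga
The stretches span chr6:124732831-124732953 for the downstream start and chr6:124732831-124738512 for the upstream start. The transcript from the downstream start held 76.4% of the gene's TPM in replicate 1 and 68.5% in replicate 2, with 1551 and 1026 reads. The 3 transcripts from upstream starts together held 9.87% and 14.8%, with 208 and 228 reads. Of the reads given to either start, 88.2% in replicate 1 went to the downstream start, against 81.8% in replicate 2. A further 12.6% and 14.0% of TPM went to a fragment of 456 bases at the 3′ end of the gene with 43.1 and 35.4 reads. The antisense gene Gm20531, which shares 3.26% of the 100-base stretches of Ptpn6, was listed with 0 reads in replicate 1 and 4.26 in replicate 2.

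**Figure D3:**
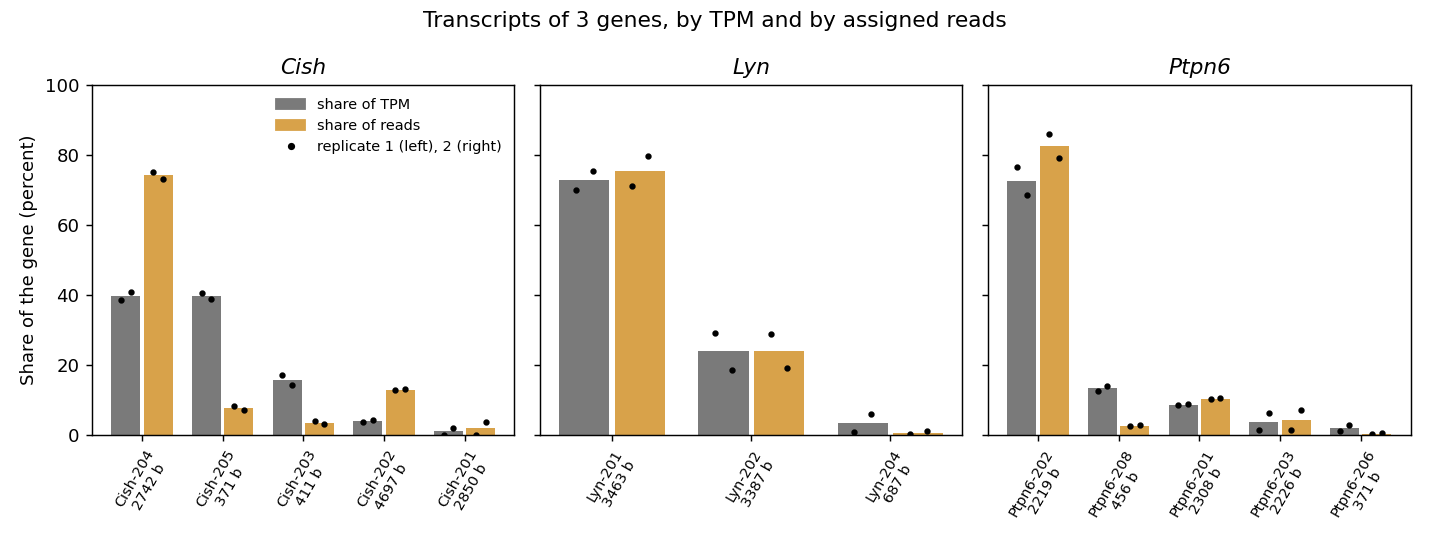
Share of each gene held by its transcripts in Cish, Lyn and Ptpn6, by TPM in grey and by assigned reads in orange, with bars for the mean and dots for replicate 1 on the left and replicate 2 on the right. The short transcripts Cish-205, Cish-203 and the 456-base transcript of Ptpn6 hold a larger share by TPM than by reads, while the Lyn forms have like shares on both.

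Ptpn6 belongs to a group of phosphatases and PIAS proteins that act on JAK-STAT signals. All 9 other genes of that group were above 1 TPM in both libraries, where 26.7% of all named mouse genes reached 1 TPM. Since the group was picked by name, the count is not a result about it. Ptpn2, a phosphatase of JAK and STAT proteins, was the highest at 28.0 TPM in replicate 1, against 29.9 TPM in replicate 2. Ptpn1, which acts on JAK2, followed at 19.16 and 21.02 TPM in replicates 1 and 2. Of the PIAS genes, Pias1 was at 13.1 and 16.3 TPM, Pias4 at 12.0 and 15.1 TPM, Pias2 at 9.63 and 10.3 TPM, and Pias3 at 2.94 and 3.36 TPM, the lowest of the group.

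In order of mean TPM the genes ran Epor, Ptpn6, Jak2, Stat5b, Lyn, Stat5a, Cish, Socs2, Socs3 and Socs1. Of the 9 neighbouring pairs in that order, 7 were separated in the sense that both libraries' values of the higher gene exceeded both of the lower. Cish over Socs2 is 1 of these 7, but Cish fell below Socs2 when only protein-coding transcripts were counted. By posterior mean TPM, 6 pairs were separated. Jak2, Stat5b and Lyn, at means of 14.5, 14.4 and 14.4 TPM, could not be ordered. The largest steps were the 2.87-fold gap from Epor to Ptpn6 and the 2.37-fold gap from Socs3 to Socs1.

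The libraries agreed to within 1.5-fold for every one of these genes. On log2(TPM + 1), replicate 1 over replicate 2, a scale that shrinks differences of low genes, the 9 averaging 1 TPM or more lay between -0.27 and 0.23 and 0 passed 1.5-fold. Over all 11686 genes averaging 1 TPM or more, 2.53% passed, so 0 of 9 is near the background. With 2 libraries of 1 group there is no test of any of these differences.

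The small differences between the libraries did not all have the same sign. Epor, Jak2, Lyn, Stat5a and Stat5b were all lower in replicate 1, with log2 ratios from -0.27 (Jak2) to -0.22 (Epor), as were 72.4% of all 11686 genes. Jak1, Tyk2, Fyn, Yes1 and Csk were lower in replicate 1 as well, from -0.30 (Csk) to -0.13 (Fyn). Jak3 at -0.02 and Lck at -0.01 were nearly level. The feedback genes were split. Cish at 0.23, Socs3 at 0.18 and Socs2 at 0.10 were higher in replicate 1, while Socs1 at -0.26 and Ptpn6 at -0.08 were lower. The median over all genes was itself -0.10, and CPM scaled with TMM factors, which align the bulk of genes, brought it to 0.00. On that scale the 5 activating genes stayed lower in replicate 1, from -0.20 (Stat5a) to -0.06 (Lyn), Cish, Socs2 and Socs3 stayed higher, from 0.20 to 0.25, and Ptpn6 turned to 0.07.

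Counts scaled to the library total (CPM), which need no transcript lengths, gave ratios of replicate 1 over replicate 2 with exact 95% binomial counting intervals. Epor was at 0.894 (0.856 to 0.934), Jak2 at 0.855 (0.808 to 0.904), Stat5b at 0.870 (0.821 to 0.923), Stat5a at 0.835 (0.752 to 0.928) and Lyn at 0.922 (0.860 to 0.988). Of the feedback genes, Cish was at 1.16 (0.966 to 1.40), Socs2 at 1.18 (0.968 to 1.44), Socs3 at 1.13 (0.899 to 1.43), Socs1 at 0.704 (0.419 to 1.18) and Ptpn6 at 1.01 (0.942 to 1.09). These intervals cover counting error only and say nothing of the spread between livers. All 10 ratios except that of Socs1 lay within 0.742 to 1.28, the 5th to the 95th percentile of all genes averaging 1 TPM or more. The median of those genes, 0.966, lay inside the intervals of Lyn, Socs1, Socs3 and Ptpn6, and just inside the low end of that of Cish. It lay outside those of Epor, Jak2, Stat5a, Stat5b and Socs2.

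**Figure D4:**
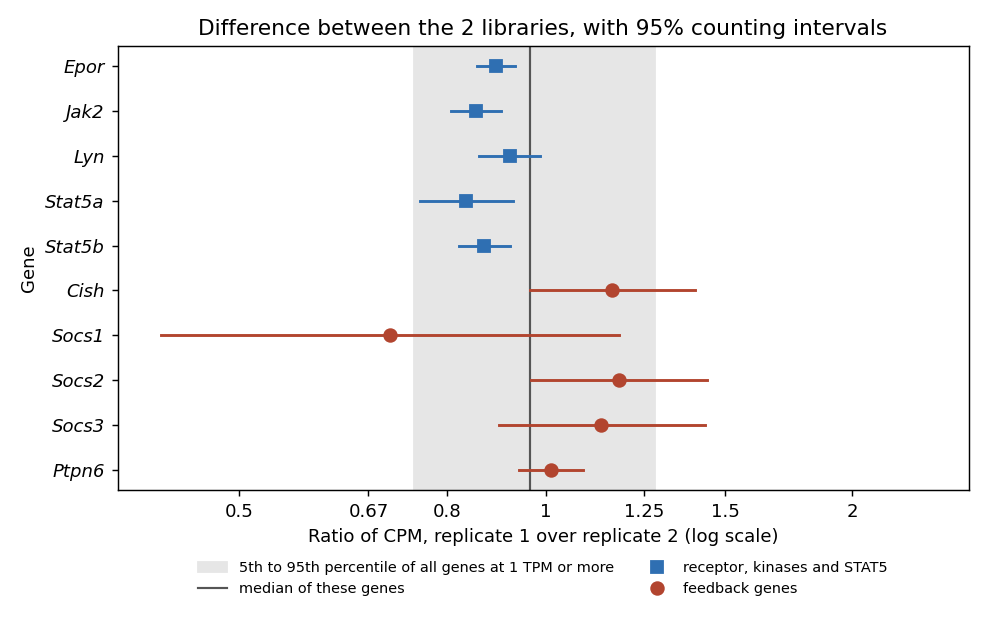
Ratio of CPM, replicate 1 over replicate 2, on a log axis, with lines for exact 95% counting intervals, squares for the receptor, kinases and STAT5 genes and circles for the feedback genes. The 5 squares and the circle of Socs1 lie below 1, the other 4 circles lie above it, and the grey band from 0.742 to 1.28 holds the 5th to the 95th percentile of all genes at 1 TPM or more.

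Markers of some other blood cells differed between the libraries by more than these genes did. The median log2 ratio, replicate 1 over replicate 2, of markers averaging 1 TPM or more was 0.37 for neutrophils and monocytes, -0.31 for megakaryocytes and -0.08 for macrophages, whose 10 markers summed to 259 and 264 TPM in replicates 1 and 2. All 9 neutrophil and monocyte markers averaging 1 TPM or more were higher in replicate 1. The highest, S100a8, had 1292 TPM in replicate 1 and 894 in replicate 2, and the lowest of the 9, Csf3r, had 2.17 and 1.69 TPM. The remaining one of the 10, Ly6g, had 0.60 and 0.68 TPM. All 7 megakaryocyte markers were lower in replicate 1, Pf4 with 338 TPM against 418 TPM in replicate 2. Mast cell and basophil markers summed to 20.2 TPM in replicate 1, against 7.94 TPM in replicate 2, with Mcpt8 the largest part at 12.6 and 3.51 TPM. Only 2 of these 7 markers reached 1 TPM in both libraries. Cpa3, at 2.66 and 2.88 TPM in replicates 1 and 2, and Cma1, at 0.12 and 0.21 TPM, were lower in replicate 1. Erythroid markers summed to 359626 and 345720 TPM, a smaller relative difference. Lyn, Ptpn6, Socs3 and Cish are also known from blood cells outside the red lineage, and the part of these cells in the differences was not tested.

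Genes known to respond to EPO or STAT5, some raised and some lowered, covered a wide range. Of 20 measured, 17 were at 1 TPM or more in both libraries, against 26.7% of all named mouse genes, and the median of all 20 was 11.5 TPM. They were picked as known responders, so the count is not a result about them. The highest were Ccnd3, a G1 cyclin of red cell precursors, at 309 TPM in replicate 1, against 370 TPM in replicate 2, Tfrc, the transferrin receptor that brings in iron, at 315 and 355 TPM in replicates 1 and 2, and the survival gene Bcl2l1 at 140.1 and 152 TPM. The lowest was Bcl6, a gene that STAT5 represses in other cells, at 0.15 and 0.13 TPM. The short-lived response gene Osm was at 0.33 and 0.29 TPM, and Erfe, the gene of a hormone that red cell precursors release in response to EPO, at 1.93 TPM in both. Over the 17 averaging 1 TPM or more, 1 was more than 1.5-fold higher in replicate 1 and 1 more than 1.5-fold lower, Lcn2 and Irf1, where 2.53% of all genes averaging 1 TPM or more passed in either direction. A count of 2 genes is too small to set them apart from that share. Lcn2, a neutrophil granule gene as well, was at 53.1 TPM in replicate 1, against 33.7 TPM in replicate 2, and Irf1 at 4.44 and 7.40 TPM.

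**Figure D5:**
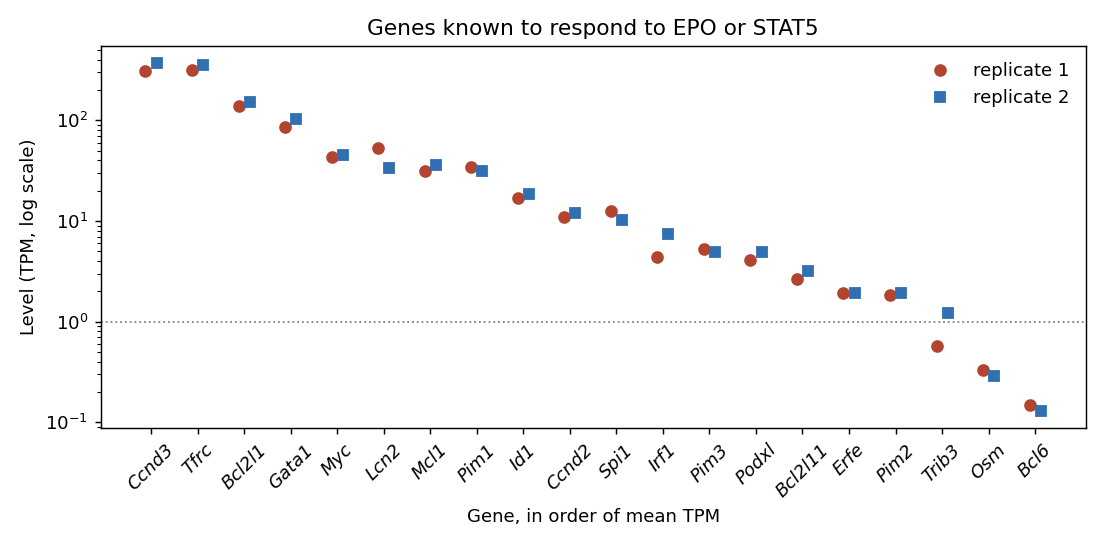
TPM on a log scale of 20 genes known to respond to EPO or STAT5, in order of mean, with replicate 1 as circles and replicate 2 as squares. They run from Ccnd3 at 309 and 370 TPM to Bcl6 at 0.15 and 0.13 TPM, and the dotted line marks 1 TPM.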

How the data were processed

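Total RNA of 2 libraries of 1 group was analysed. Per the submitters' deposited descriptions, the gene and transcript tables are on mm10 with GENCODE M4. Aligner, counting program and strand handling: not given in the sources used here. The authors deposited expected counts (estimated reads, not normalized), TPM and FPKM per gene and transcript, the percent of a gene's TPM held by each transcript, and posterior means, posterior SDs and TPM intervals whose level the headers do not state. The deposited effective length is 99 bases below the length, so TPM of short transcripts is raised.

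Mouse rows (43346) were named by identifier, 42462 with a symbol, and spike-ins and numeric rows were left out. Detection was 1 TPM, the pseudocount 1 TPM, the fold 1.5, with a filter of a mean of 1 TPM. Counting intervals were exact (95%), from rounded expected counts, and the interval procedure was tested on simulated counts. TMM factors came from edgeR 4.0.16 (R 4.3.3), with no test. Python 3.11.15, numpy 2.4.6, pandas 2.3.3, scipy 1.17.1, Biopython and matplotlib 3.10.9 were used. Positions, transcript names and coding bases (stop codon not counted) came from GENCODE M21 and promoter windows from RefSeq, both on the same build, GRCm38. The members and lists were chosen with earlier results of these data known. Named genes were the 10 members, the JAK, STAT, SOCS, PIAS and Src genes, and the 3 highest and the lowest of each other pathway list. Csk, Kit, Epo, Osm, Erfe, Lcn2, Irf1, Akt1, Tfr2, Btrc and the cell type markers named were added after their values were seen. Ahsp and Fam132b, an older name of Erfe, had no match. Some genes of the lists and 1 sequence are not reported here.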

Additional observations from a re-analysis of the deposited data

How the results depend on the processing

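The median level of the 10 genes was 10.4 TPM. It was 18.95 TPM with globin genes left out of the total and 35.5 as CPM without length scaling, and single libraries gave 9.45 to 11.3 TPM. The log2 ratio of Stat5a over Stat5b was -1.16, and -1.69 by expected counts, -1.05 with a pseudocount of 1 TPM, -1.11 by posterior mean TPM and -1.04 by protein-coding transcripts, with -1.17 to -1.15 from single libraries. The feedback share was 34.5%, and 22.8% by expected counts, 39.1% by posterior mean TPM and 30.3% with Lyn added to the 4 genes it is set against, with 31.7% to 37.3% from single libraries. Expected counts and CPM differ by construction, since they are not divided by length. Cish over Socs2 (log2 0.30) turned to -0.0918 by posterior mean TPM and to -0.45 by protein-coding transcripts. Posterior means, protein-coding transcripts and the addition of Lyn were tried after seeing the data.

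The count of 9 detected genes was 10 at 0.5 TPM, 6 at 5 TPM, and 9 to 10 from single libraries. The count of 0 past 1.5-fold was 0 under 6 alternatives of scale, pseudocount and filter, and under a 2-fold threshold and a 10 TPM filter, which could give no other value, while that over all genes, 296, was 621 with a pseudocount of 0.1, 81 with one of 5, 87 at 2-fold, 510 with no filter and 49 with a filter of 10 TPM. A leading transcript with 50% or more of the gene in both libraries was found for 7 of 8 genes with several transcripts by TPM and for 8 by reads. The share over all genes with several transcripts is not given here, so these counts are not a result about these genes. Of 251 single values under alternatives, 198 moved by less than the spread between libraries or, for library ratios, by less than 1.5-fold. A further 51 moved by more and 2, those of Cish over Socs2, reversed. Library ratios that changed sign within 1.5-fold, such as Ptpn6 from -0.08 to 0.07 on TMM-scaled CPM, were not counted as reversed. Many of the 198 could have no other outcome. Leaving out 1 of 2 libraries moves a mean by less than their SD, and a filter does not alter the ratio of a single gene. The 198 are therefore no measure of how robust the values are. The order of levels needs both libraries, so it has no value with 1 left out. Socs1 and Epo rest on few reads, and the Cish and Lyn transcripts share sequence, which limits how reads are split between them. No paired analysis was possible because there is 1 group.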

Other observations

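The relay from the receptor to RAS and PI3 kinase was described by 23 genes picked as known parts of it. Of these adaptor and downstream genes, 20 were at 1 TPM or more in both libraries, with a median of 6.05 TPM over the 23. The background is 26.7% of all named genes, and for picked genes, here and in the groups that follow, the count is not a result about them. The highest were Shc1, an adaptor, with 22.36 and 25.01 TPM in replicates 1 and 2, Grb2, which couples receptors to RAS, with 21 and 24.47 TPM, and Pik3r1, the gene of a PI3 kinase regulatory subunit, with 18.8 and 20.5 TPM. The lowest was the adaptor gene Sh2b2 with 0.82 and 1.03 TPM. Akt1, a kinase downstream of PI3 kinase, had 8.11 TPM in replicate 1, against 14.1 TPM in replicate 2, and was the one gene of the 23 more than 1.5-fold apart. Over all genes averaging 1 TPM or more, 2.53% were that far apart.

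The EPO receptor must fold in the endoplasmic reticulum and is later removed by ubiquitin ligases. A list of 7 genes was picked under the heading of receptor maturation and turnover, and all 7 were at 1 TPM or more in both libraries. The general chaperones Hspa5, with 387 and 374 TPM in replicates 1 and 2, Calr, with 281 and 284 TPM, and Canx, with 110.3 and 117 TPM, were the highest. Tfr2, whose protein escorts the EPO receptor to the surface, had 25.3 and 26.8 TPM. Btrc, a ubiquitin ligase subunit, had 10.97 and 12.69 TPM. The lowest, Trp53inp1, had 1.62 and 2.56 TPM, and nothing in these data ties it to the receptor.

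Macrophages feed red cell precursors in the fetal liver, and 9 of 10 macrophage markers were at 1 TPM or more in both libraries. Lymphoid markers were low, with 2 of 8 at 1 TPM or more in both and sums of 6.80 and 6.25 TPM.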
